A study of Drosophila melanogaster with 29 samples.

Results

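The genes described here encode the proteins of the mitochondrial ribosome in Drosophila S2 cells, a line that grew out of embryonic cells and has features of blood cells. They were taken by name, as every gene whose current symbol starts with mRpL (large subunit) or mRpS (small subunit), with no measured value in the choice. The reference annotation lists 73 such genes. Of these, 69 had a probe set naming them alone and were all tested, 44 of the large and 25 of the small subunit, among 11677 genes tested on the arrays. For mRpL34 and mRpL37 no probe set was named here, and mRpL53 and mRpS10 shared theirs with another gene, so these 4 were not analysed here. All 69 averaged above 4 on the log2 signal scale, and 0 of them reached the lowest value of the arrays (2.27) on any array.

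Total RNA was measured on 29 Affymetrix arrays in 6 groups of S2 cells with no other stated genotype. Cells of 5 groups received double-stranded RNA for 4 days against dKDM2, dRING, PC, PH or PSC, with 3 arrays per depletion. The sixth group, Mock, is labelled untreated, has 14 arrays, and is not described as having received a control double-stranded RNA. All groups come from 1 cell line, and the labels call the samples of a group biological replicates without naming separate cultures, so that the p-values measure the spread between these samples, which may be technical.

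Mitochondria make a small set of respiratory chain subunits from their own genome on their own ribosomes. All proteins of these ribosomes are nuclear-encoded in animals, are made in the cytosol and are imported. The large subunit forms the peptide bonds and holds the exit tunnel, and the small subunit binds and decodes the messenger RNA. Many of the proteins descend from bacterial ribosomal proteins and share their numbers, and others are found on mitochondrial ribosomes without a bacterial counterpart. dRING, the product of Sce, works in Polycomb repressive complex 1 together with PC, PH and PSC and helps keep developmental genes silent, and dKDM2 is a histone demethylase. The series asked how each depletion compares with untreated cells.

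Several array-wide facts bear on the values below. Sce averaged 3.63 ± 0.88 on the dRING arrays, against 8.04 ± 0.47 on Mock arrays (SD, n = 3 and 14), but was also low on dKDM2 arrays (5.22 ± 1.49) and PH arrays (5.38 ± 0.43). Pc averaged 4.39 ± 0.64 on the PC arrays, against 6.60 ± 0.62 on Mock arrays. The gene Psc went against its label, with 9.13 ± 0.42 on the arrays labelled PSC, against 6.77 ± 0.62 on Mock arrays, and was higher still in the other depletions (9.31 to 11.23). The transcripts of dKDM2 and PH were not analysed here. The dKDM2 and PH arrays stood apart in the laboratory controls. The RNAs added at hybridization averaged 12.18 and 12.68 on dKDM2 and PH arrays, 10.22, 10.24 and 10.14 on dRING, PC and PSC arrays, and 10.52 on Mock arrays (9.54 to 11.66). The added poly-A RNAs averaged 8.27 and 9.37 on dKDM2 and PH arrays, 4.48, 4.58 and 4.23 on dRING, PC and PSC arrays, and 4.93 on Mock arrays. The 5′ minus 3′ signal of actin, a sign of RNA integrity, averaged -2.32, -2.19, -2.39, -3.07 and -2.66 in the order dKDM2, dRING, PC, PH and PSC, and -1.45 on Mock arrays. In dRING, PC and PSC arrays 1 and 2 lay between -1.80 and -1.16, and array 3 at -4.18, -4.20 and -4.67. Mock array 3 was also at -4.67. The submitters state an RNA integrity number above 8 for every sample. The part of these control signals, and of RNA integrity, in the differences below was not tested beyond the covariates given there. Of the blood cell markers, srp, Pxn, crq, eater, Col4a1, vkg and He averaged 7.03 or more on Mock arrays, while NimC1, lz and peb lay at 2.40 or less and Hml at 3.29. Markers of neurons, muscle, germline and fat body lay near the lowest value, except elav (8.54 on dKDM2, 9.01 on PH and 6.17 on Mock arrays) and bam (6.25 on Mock arrays).

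Most transcripts of the mitochondrial ribosome fell after depletion of dKDM2, of PH and on the arrays labelled PSC. After dKDM2 depletion 50 of the 69 genes fell and 1 rose, with a median log2 fold change of -1.45. After PH depletion 49 fell and 2 rose (median -1.47), and on the arrays labelled PSC 46 fell and 0 rose (median -1.29). After dRING and PC depletion 2 genes each fell and 0 rose, with medians of -0.61 and -0.65. A gene is said to have risen or fallen at a limma adjusted p under 0.05, over all 11677 genes.

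The shares called among all genes were as follows. For dKDM2 14.7% of all genes were called lower and 18.4% higher, for PH 15.4% and 19.7%, and for PSC 6.51% and 10.0%. For dRING 0.745% of all genes were called lower and 2.03% higher, and for PC 1.22% and 3.32%. The median over all genes was 0 within rounding in every depletion, with quantile normalization and with deposited values. Over the 5550 genes with a mean above 4 it lay between -0.02 and 0.04 with quantile normalization. For dKDM2 and PH quantile normalization imposes this balance. With deposited values the median of these 5550 genes was -0.58 for dKDM2 and -0.75 for PH, and with median centring -0.75 and -0.97. For dRING, PC and PSC it lay between -0.05 and 0.01 with deposited values. Since all members average above 4, the share of such genes called lower is the nearer background. It was 27.7%, 1.55%, 2.54%, 27.6% and 13.4% for dKDM2, dRING, PC, PH and PSC, against 72.5%, 2.9%, 2.9%, 71% and 66.7% of the members, so that the dRING and PC shares of members lie near the background. The members' own values depended on scaling as well. With deposited values 63 fell for dKDM2 and 66 for PH, with 0 rises and medians of -2.21 and -2.31. With median centring 65 and 67 fell, with 0 rises and medians of -2.38 and -2.53. Set against the median of genes with a mean above 4, the members lay at -1.49 for dKDM2 and -1.45 for PH with quantile normalization, and at -1.63 and -1.56 under both others. At an unadjusted p under 0.05 in limma, 58, 25, 25, 54 and 57 of the 69 genes changed after dKDM2, dRING, PC, PH and PSC depletion. Among the 5550 genes with a mean above 4 the counts were 3559, 1670, 1680, 3514 and 2491 in that order. Among all 11677 genes they were 4666, 2025, 2067, 4884 and 3100. An array cannot tell less RNA per cell from fewer cells that express a gene, and the arrays were scaled to a common distribution, so all changes are relative to the other transcripts.

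Log2 fold changes below 0 were found for 67 of 69 genes after dKDM2, PH and PSC depletion and for 61 after dRING and PC depletion. Among the 5550 genes with a mean above 4 they were found for 2704, 2673, 2751, 2804 and 2828 for dKDM2, dRING, PC, PH and PSC. All 3 depletion arrays lay below all 14 Mock arrays for 37 genes after dKDM2 depletion (9.94% of all genes), 37 after PH depletion (12.0%) and 29 on PSC arrays (4.18%). For dRING 7 members lay so (1.47% of all genes), and for PC 5 (1.54%). Of the 5550 genes with a mean above 4, 964, 163, 172, 897 and 432 lay so for dKDM2, dRING, PC, PH and PSC. A total of 35 genes fell after each of dKDM2, PH and PSC depletion, 43 fell after both dKDM2 and PH depletion, and 61 fell in at least 1 depletion. The 5 comparisons share the Mock arrays, so these counts are not independent of each other. Shared falls were not counted over all genes, so whether such sharing is particular to the members was not tested.

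**Figure D1:**
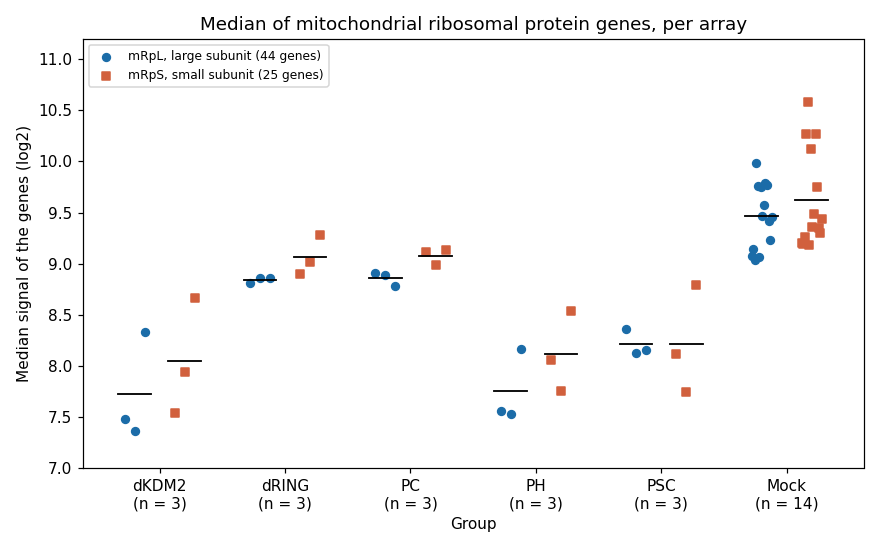
Median log2 signal over the 44 large subunit genes (circles) and the 25 small subunit genes (squares) on each of the 29 arrays, by group, with bars at the group means. The median over all 69 genes was 7.51 to 8.48 on dKDM2 arrays, 8.83 to 8.95 on dRING arrays, 8.93 to 8.97 on PC arrays, 7.71 to 8.22 on PH arrays, 8.02 to 8.35 on PSC arrays and 9.12 to 10.17 on Mock arrays.

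The median of the 69 genes on each array showed the shift without a gene-by-gene test. It was 7.51, 7.60 and 8.48 on dKDM2 arrays and 7.74, 7.71 and 8.22 on PH arrays. It was 8.83, 8.95 and 8.95 on dRING arrays, 8.97, 8.93 and 8.94 on PC arrays and 8.22, 8.02 and 8.35 on PSC arrays. On the Mock arrays it had a lowest value of 9.12, a median of 9.44 and a highest value of 10.17. With quantile normalization no depletion array reached the lowest Mock array. The dRING and PC arrays came closest to it, and Mock arrays 1, 2 and 3 (9.13, 9.16 and 9.16) were among the lowest of their group. With deposited values the dRING and PC arrays overlapped Mock. There dRING array 2 (9.12) and PC arrays 1 and 2 (9.16 and 9.11) lay above Mock array 3 (9.07). In members the median SD over the 14 Mock arrays was 0.58, from 0.18 for mRpL45 to 1.07 for mRpS24, against 0.57 over genes with a mean above 4.

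The numbers of the samples mattered for 3 depletions. Samples with the same number deviated together between Mock 1 to 3 and the dRING, PC and PSC arrays (correlations over 5490 genes of 0.617 to 0.84), and not for every number between Mock and dKDM2 or PH. With the replicate number as a block and Mock 1 to 3 alone, 0 of 69 genes fell after dRING depletion, 0 after PC depletion and 25 on PSC arrays. The medians were then -0.19, -0.16 and -0.91. With Mock 1 to 3 and no block, 14 genes fell on PSC arrays. With all 14 Mock arrays and PSC replicate 2 left out, 26 did. For dKDM2 and PH the values with Mock 1 to 3 alone were 33 and 32 falls, with medians of -1.30 and -1.24.

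The laboratory controls that set the dKDM2 and PH arrays apart were also entered as covariates, with the hybridization and poly-A signals of each array in the fit. After that 43 genes fell for dKDM2 and 36 for PH, with medians of -1.96 and -2.03. The poly-A signals of the dKDM2 arrays (7.15 to 9.18) and PH arrays (9.09 to 9.61) lay above all those of Mock (2.96 to 7.12), so what moves with these signals and what moves with the depletion cannot be told apart.

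**Figure D2:**
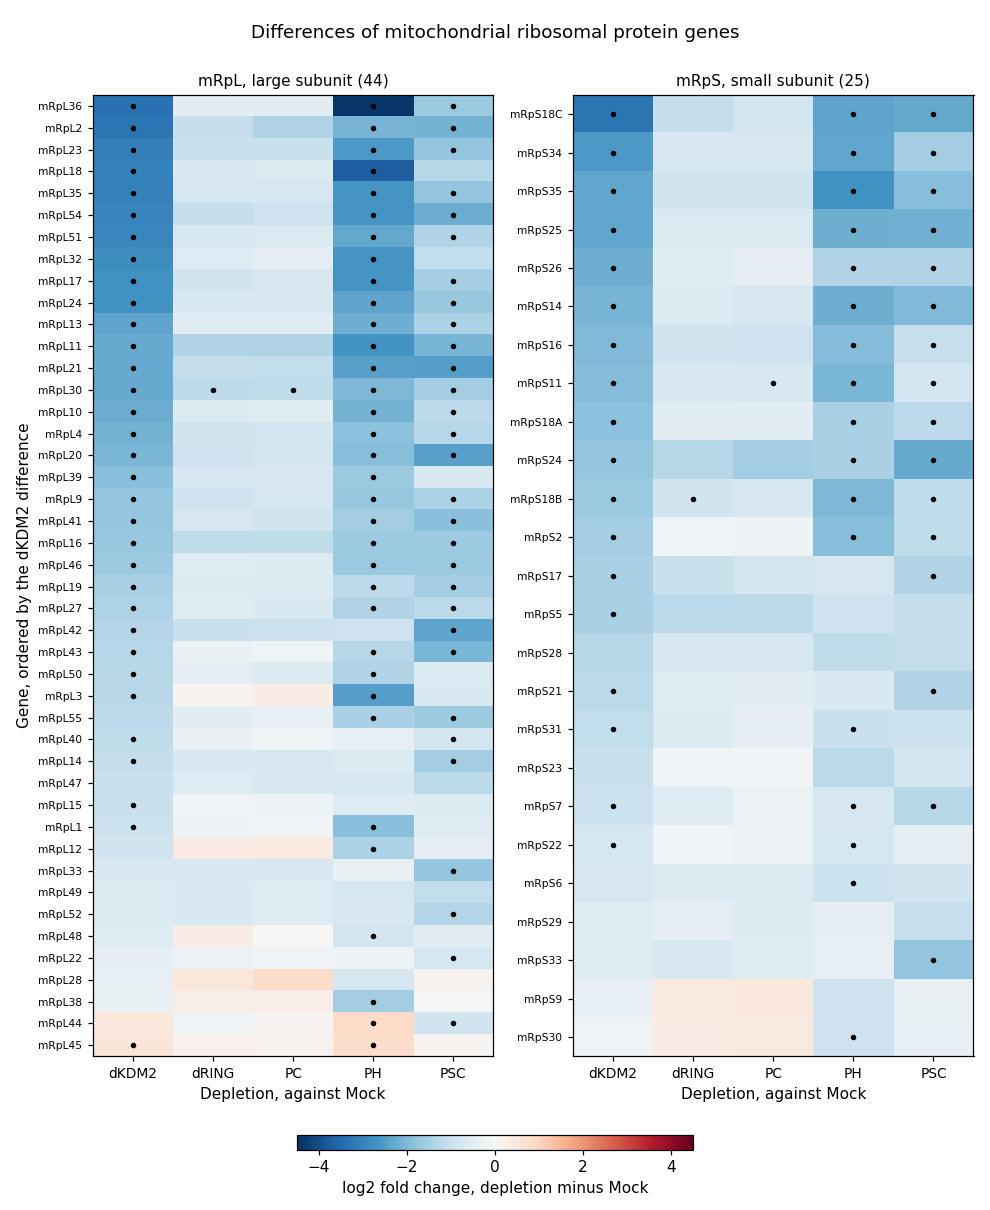
Log2 fold change (depletion minus Mock) of the 44 large subunit genes (left) and 25 small subunit genes (right) after each depletion, with blue below 0 and red above, and a dot where the limma adjusted p was under 0.05. Rows are ordered by the dKDM2 difference. The dKDM2, PH and PSC columns carry 51, 51 and 46 dots and the dRING and PC columns 2 each. The red rows at the foot of the left panel are mRpL44 and mRpL45, whose calls for PH, and that of mRpL45 for dKDM2, are lost with the deposited values and with median centring, and mRpL45 turns below 0 with median centring.

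At the catalytic core of the large subunit mRpL2 had the second largest fall of all members after dKDM2 depletion, and mRpL3 a smaller one than the median member. mRpL2, whose bacterial relative reaches toward the peptidyl transferase centre, had 4.32, 6.22 and 7.48 on dKDM2 arrays, against a lowest value of 8.14, a median of 9.02 and a highest value of 11.33 on Mock arrays. The groups did not overlap, although the dKDM2 arrays spread widely. It fell 9.79-fold (-3.29, SE 0.61, limma adjusted p = 0.00014). mRpL3, another protein of this region, had 6.58, 6.46 and 6.24 on dKDM2 arrays and 4.84, 4.42 and 6.34 on PH arrays, against 6.96, 7.67 and 8.29 (lowest, median, highest) on Mock arrays. Every dKDM2 and PH array lay below every Mock array. It fell by 1.24 after dKDM2 depletion (SE 0.27, limma adjusted p = 0.000706) and by 2.47 after PH depletion (limma adjusted p = 1.26e-07). Of the 4 members placed at this site (mRpL2, mRpL3, mRpL16 and mRpL27), 4 fell after dKDM2 depletion, 4 after PH depletion and 3 on PSC arrays. With deposited values these counts were the same. Of genes with a mean above 4, 27.7%, 27.6% and 13.4% were called lower for dKDM2, PH and PSC. Differences between sites of the ribosome, here and below, were not tested.

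At the exit tunnel, where the new peptide leaves, mRpL23 had 7.52, 6.82 and 8.56 on dKDM2 arrays, against a lowest value of 9.66, a median of 10.55 and a highest value of 12.03 on Mock arrays. The dKDM2 arrays were all below the Mock arrays. It fell 8.54-fold (-3.09, SE 0.42, limma adjusted p = 2.88e-06). Its neighbours at the tunnel exit in bacteria, mRpL17 and mRpL24, fell by 2.73 and 2.71 (limma adjusted p = 2.51e-07 and 5.6e-08). Of 7 members placed along the tunnel (mRpL4, mRpL17, mRpL22, mRpL23, mRpL24, mRpL45 and mRpL47), 4 fell after dKDM2 depletion, 4 after PH depletion and 5 on PSC arrays. The exceptions mRpL45 and mRpL47 are described below. mRpL22, which lines the tunnel wall, had log2 fold changes of -0.41 after dKDM2 and -0.23 after PH depletion without a call. It fell on PSC arrays (-0.79, limma adjusted p = 0.03). With deposited values 6 of the 7 tunnel members fell for each of dKDM2, PH and PSC.

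mRpL36 had the largest fall of all members after dKDM2 and PH depletion, and belongs with mRpL32, mRpL33 and mRpL35 to the small proteins of bacterial type. This zinc-ribbon protein had 6.83, 6.50 and 8.10 on dKDM2 arrays, 6.59, 4.59 and 7.24 on PH arrays and 8.89, 8.60 and 9.05 on PSC arrays, against 9.93, 10.50 and 11.08 (lowest, median, highest) on Mock arrays. None of these 9 depletion arrays reached the lowest Mock array. It fell 10.3-fold after dKDM2 depletion (-3.36, SE 0.35, limma adjusted p = 8.74e-08), 20.6-fold after PH depletion (-4.36, SE 0.35, limma adjusted p = 1.78e-09) and 3.15-fold on PSC arrays (-1.66, limma adjusted p = 0.00159). Its dRING values of 9.85, 9.98 and 10.24 and PC values of 10.10, 9.96 and 10.06 overlapped those of Mock (log2 fold changes of -0.48 and -0.46). mRpL35 had 6.17, 5.44 and 6.64 on dKDM2 arrays, against 8.31, 9.08 and 9.70 (lowest, median, highest) on Mock arrays. The gap between the groups was wide, and the gene fell 8.15-fold (-3.03, SE 0.29, limma adjusted p = 1.78e-08). mRpL32 had 4.49, 6.68 and 8.68 on dKDM2 arrays and 5.77, 7.77 and 6.77 on PH arrays, against 8.77, 9.34 and 10.43 on Mock arrays. It fell by 2.81 and 2.66 (SE 0.48 each, limma adjusted p = 6.27e-05 and 0.000119), although dKDM2 array 3 came close to the lowest Mock array. With the control signals as covariates the PH call was lost (-2.25, limma adjusted p = 0.128). The fourth such gene, mRpL33, fell on PSC arrays (-1.73, SE 0.36, limma adjusted p = 0.0013) and had log2 fold changes of -0.69 and -0.35 after dKDM2 and PH depletion without a call.

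mRpL18 belongs to the central protuberance, the part of the large subunit that faces the small one at the top. It had 6.04, 4.87 and 7.48 on dKDM2 arrays and 3.34, 5.85 and 7.14 on PH arrays, against 8.14, 9.21 and 9.84 (lowest, median, highest) on Mock arrays. The groups did not overlap. It fell 8.16-fold after dKDM2 depletion (-3.03, SE 0.59, limma adjusted p = 0.000271) and 13.1-fold after PH depletion (-3.72, SE 0.59, limma adjusted p = 2.4e-05). With the control signals as covariates both calls were lost (-1.91 and -2.28, limma adjusted p = 0.0701 and 0.0896). On dRING arrays its values were 9.08, 9.14 and 7.26, on PC arrays 9.18, 9.12 and 7.19 and on PSC arrays 8.59, 8.43 and 6.66, so that array 3 of each stood below arrays 1 and 2. Of 5 members that sit in the human central protuberance (mRpL18, mRpL38, mRpL40, mRpL46 and mRpL48), 3 fell after dKDM2 depletion, 4 after PH depletion and 2 on PSC arrays.

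The stalk recruits translation factors. mRpL11, at its base, had 7.40, 6.26 and 6.83 on dKDM2 arrays, 7.00, 5.45 and 6.82 on PH arrays and 6.93, 6.85 and 7.27 on PSC arrays, against 8.06, 8.86 and 10.34 (lowest, median, highest) on Mock arrays. On dRING arrays (7.65, 7.74 and 7.92) and PC arrays (7.71, 7.68 and 7.84) it was also below every Mock array, without a call (limma adjusted p = 0.084 and 0.0658). It fell by 2.28, 2.69 and 2.09 for dKDM2, PH and PSC (SE 0.42 each, limma adjusted p = 0.000146, 1.97e-05 and 0.000882). mRpL10 fell after the same 3 depletions (-2.22, -2.14 and -1.18). mRpL12, the flexible stalk protein, had 8.14, 8.86 and 9.85 on PH arrays, against 8.96, 10.51 and 11.42 on Mock arrays, an overlap, and fell after PH depletion (-1.43, SE 0.44, limma adjusted p = 0.0138).

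Of the large subunit proteins without a bacterial counterpart, mRpL54 and mRpL51 changed most after dKDM2 depletion. mRpL54 had 6.61, 7.22 and 7.30 on dKDM2 arrays, 6.87, 6.91 and 8.29 on PH arrays and 7.37, 7.32 and 8.69 on PSC arrays, against 9.29, 9.84 and 10.68 (lowest, median, highest) on Mock arrays. All 9 of these arrays lay below the Mock range. Its log2 fold changes were -2.98, -2.66 and -2.22 (SE 0.34 each, limma adjusted p = 3.36e-07, 1.57e-06 and 4.97e-05). mRpL51 had 6.97, 7.01 and 8.80 on dKDM2 arrays, against 9.86, 10.52 and 11.29 on Mock arrays, and fell by 2.95 (SE 0.40, limma adjusted p = 2.94e-06).

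In the small subunit the largest fall after dKDM2 depletion was that of mRpS18C and the largest after PH depletion that of mRpS35. mRpS35 had 7.47, 6.91 and 8.36 on dKDM2 arrays, 6.91, 6.49 and 8.21 on PH arrays and 8.07, 7.55 and 8.35 on PSC arrays, against 9.16, 9.82 and 10.93 (lowest, median, highest) on Mock arrays. Its dRING values (8.93, 9.15 and 9.05) and PC values (9.11, 8.99 and 8.93) lay just below the Mock range, without a call (limma adjusted p = 0.185 and 0.158). It fell 5.08-fold, 6.59-fold and 3.82-fold for dKDM2, PH and PSC (-2.34, -2.72 and -1.93, SE 0.36 each, limma adjusted p = 1.46e-05, 1.97e-06 and 0.000379). mRpS34 and mRpS25, also without a bacterial counterpart, fell by 2.57 and 2.33 after dKDM2 depletion and by 2.34 and 2.19 after PH depletion.

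On the arrays labelled PSC mRpL21, mRpL20 and mRpL42 had the largest falls. mRpL21 had 5.81, 5.88 and 6.43, against 7.29, 8.34 and 10.19 (lowest, median, highest) on Mock arrays, with no overlap, and fell 5.62-fold (-2.49, SE 0.56, limma adjusted p = 0.00259). With the replicate block its value was -1.39 and the limma adjusted p 0.0791. mRpL20, a protein that binds ribosomal RNA early in bacterial assembly, had 6.93, 6.98 and 7.99, against 8.82, 9.61 and 10.70 on Mock arrays, and fell 5.43-fold (-2.44, SE 0.40, limma adjusted p = 8.71e-05). mRpL42, without a bacterial counterpart, had 6.88, 6.15 and 8.20 on PSC arrays and 8.03, 8.33 and 9.26 on PH arrays, against 8.35, 9.36 and 10.62 on Mock arrays. The PSC arrays lay below the Mock range and the PH arrays within and just under it. It fell 5.23-fold on PSC arrays (-2.39, SE 0.45, limma adjusted p = 0.000452), with a log2 fold change of -0.92 after PH depletion (limma adjusted p = 0.122). Against Mock 1 to 3 alone the PSC call was lost (-1.51, limma adjusted p = 0.0851). mRpS24, the mitochondrial relative of bacterial S3 at the entry of the messenger RNA, had 6.31, 6.15 and 8.20 on PSC arrays, against 7.67, 8.98 and 10.96 on Mock arrays. PSC array 3 overlapped Mock, and the fall of 2.28 (SE 0.57, limma adjusted p = 0.00642) was lost with the block (-0.97, limma adjusted p = 0.236), without PSC replicate 1 (0.0595) and without PSC replicate 2 (0.0748).

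mRpL30 was the 1 gene called lower after all 5 depletions, and it stood below every Mock array in each of them. It had 7.09, 7.11 and 7.48 on dKDM2 arrays, 8.70, 8.51 and 7.74 on dRING arrays, 8.74, 8.68 and 7.73 on PC arrays, 7.62, 6.68 and 8.17 on PH arrays and 8.22, 8.11 and 7.50 on PSC arrays. Its Mock values had a lowest value of 8.85, a median of 9.63 and a highest value of 10.14. It fell by 2.28, 1.19, 1.13, 2.02 and 1.57 in the order dKDM2, dRING, PC, PH and PSC (SE 0.30 each, limma adjusted p = 1.53e-06, 0.0278, 0.0264, 7.88e-06 and 0.000444). With the replicate block the dRING, PC and PSC values were -0.59, -0.53 and -0.97 (limma adjusted p = 0.70, 0.735 and 0.144). The dRING call was lost without dRING replicate 2 (0.0572) or 3 (0.202), and the PC call without PC replicate 3 (0.238).

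The second gene called after dRING depletion was mRpS18B, with 8.22, 8.39 and 7.19 on dRING arrays, against 8.27, 8.75 and 9.43 (lowest, median, highest) on Mock arrays. It overlapped Mock by 1 array and fell by 0.89 (SE 0.23, limma adjusted p = 0.0363), a call lost with the block (-0.58, limma adjusted p = 0.631), without dRING replicate 1 (0.0521) and without dRING replicate 3 (0.316). The second gene called after PC depletion was mRpS11, a protein of the platform, with 9.40, 9.38 and 9.12 on PC arrays, against 9.54, 10.01 and 10.51 on Mock arrays. These groups did not overlap. It fell by 0.73 (SE 0.21, limma adjusted p = 0.0494), and the value was -0.34 with the block (limma adjusted p = 0.743). Leaving out any 1 PC array also ended this call (limma adjusted p of 0.11 to 0.212). So did leaving out many single arrays of the other groups (0.054 to 0.0686) and entering the control signals as covariates (0.0606). All 4 calls for dRING and PC (mRpL30 in both, mRpS18B and mRpS11) were lost with deposited values and with median centring (limma adjusted p of 0.0897 to 0.164).

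Across members, 8 genes were called lower in 0 depletions, 12 in 1, 14 in 2, 32 in 3, 2 in 4 and 1 in 5. The same counts were not made over all genes. mRpL11 and mRpS35 shared with mRpL30 that every array of all 5 depletions lay below the Mock range. The calls after dRING and PC depletion came from 3 genes (mRpL30, mRpS18B and mRpS11) that also fell after dKDM2, PH and PSC depletion.

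**Figure D3:**
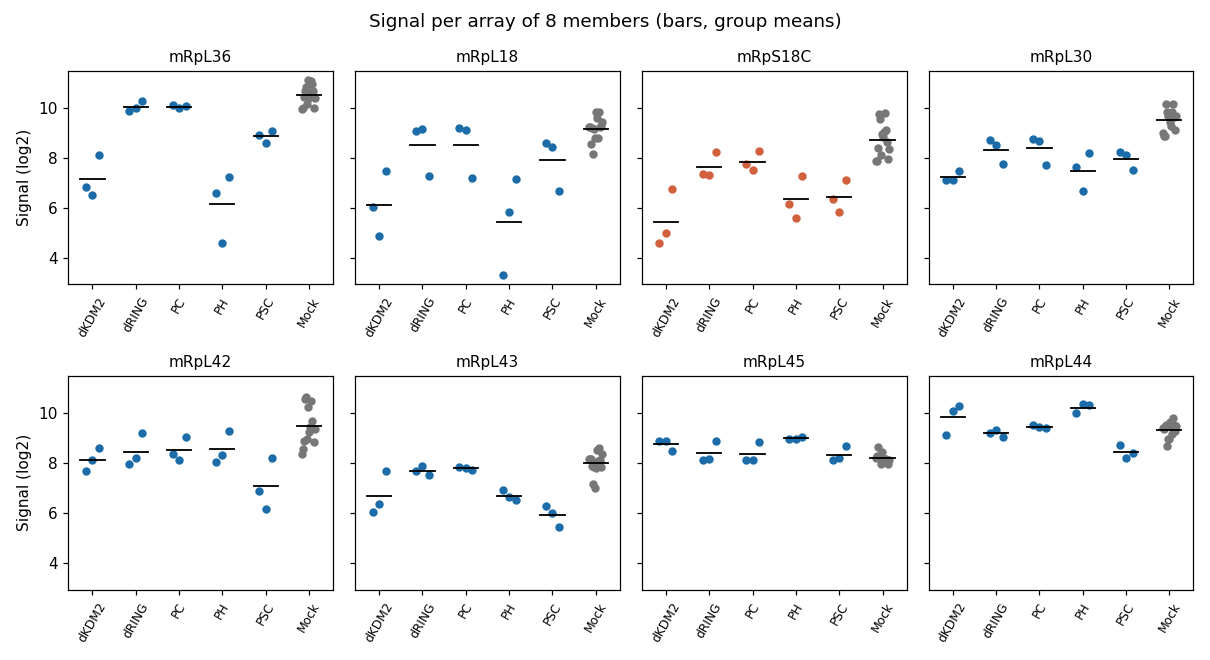
Log2 signal per array of 8 members in the 5 depletions (coloured, 3 arrays each) and Mock (grey, 14 arrays), with bars at the group means. mRpL36 and mRpL18 have their lowest values on PH arrays, mRpS18C on dKDM2 arrays and mRpL42 and mRpL43 on PSC arrays, and mRpL30 lies below the Mock arrays in each depletion. mRpL45 and mRpL44 lie above Mock on PH arrays with quantile normalization, with differences of 0.80 and 0.87 that were -0.11 and 0.06 with median centring.

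mRpL45 and mRpL44 rose against Mock after PH depletion with quantile normalization, and lost this call under both other scalings. mRpL45, which in humans helps to hold the ribosome at the inner membrane, had 8.96, 8.96 and 9.04 on PH arrays and 8.88, 8.89 and 8.47 on dKDM2 arrays, against 7.96, 8.15 and 8.64 (lowest, median, highest) on Mock arrays. The PH arrays lay above all Mock arrays, and dKDM2 array 3 within them. It rose by 0.80 after PH depletion (SE 0.16, limma adjusted p = 0.000354) and by 0.56 after dKDM2 depletion (SE 0.16, limma adjusted p = 0.00861), but without quantile normalization it was not called, at 0.11 and -0.01 for the deposited values and -0.11 and -0.18 after median centring. With the control signals as covariates it had 0.33 (0.373) for PH and 0.20 (0.576) for dKDM2, and against Mock 1 to 3 alone 0.62 (0.0828) and 0.38 (0.32). The dKDM2 call was also lost without dKDM2 replicate 1 (0.0658) or 2 (0.0685). mRpL44, related to ribonuclease III, had 9.98, 10.33 and 10.30 on PH arrays, against 8.67, 9.42 and 9.81 on Mock arrays, with no overlap, and rose by 0.87 (SE 0.20, limma adjusted p = 0.00119), but had 0.29 (0.424) with deposited values and 0.06 (0.836) with median centring. On PSC arrays mRpL44 had 8.73, 8.19 and 8.40 and fell by 0.89 (SE 0.20, limma adjusted p = 0.00225). With gene length correction of the quantile normalized values, described below, both genes were called higher for PH and dKDM2. mRpL45 had 1.23 and 1.04 (limma adjusted p = 3.51e-06 and 2.8e-05), and mRpL44 1.33 and 1.00 (2.5e-06 and 9.09e-05). Relative to the median of the members (-1.47 after PH depletion with quantile normalization and -2.53 with median centring), both genes stood higher under each scaling.

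The members nearest to 0 with quantile normalization were as follows. After dKDM2 depletion these were mRpS30 (-0.16, limma adjusted p = 0.594), mRpL38 (-0.29) and mRpS9 (-0.37), and after PH depletion mRpL22 (-0.23), mRpL33 (-0.35) and mRpL40 (-0.36). Several of them fell under the other scalings. For dKDM2 mRpS30 had -0.71 (limma adjusted p = 0.00945) with deposited values, -0.88 (0.00147) with median centring and -0.51 (0.0199) against Mock 1 to 3 alone, and mRpL38 had -1.15 (0.0311) with median centring. For PH mRpL22 had -0.91 (0.0071) and mRpL40 -1.28 (0.000613) with deposited values, and with median centring mRpL22, mRpL40 and mRpL33 had -1.13, -1.50 and -1.17 (0.000947, 8.32e-05 and 0.0168). On PSC arrays they were mRpL38 (-0.07), mRpL45 (0.14) and mRpL28 (0.15). After dRING depletion they were mRpS22 (-0.11), mRpL3 (0.13, but -0.21 with the replicate block) and mRpL15 (-0.15), and after PC depletion mRpL48 (-0.00), mRpL44 (0.12) and mRpS23 (-0.12). mRpS30, a protein that in humans sits in the large subunit despite its symbol, had 9.34, 9.03 and 8.86 on dKDM2 arrays and 8.18, 8.24 and 8.54 on PH arrays, against 8.68, 9.26 and 9.71 (lowest, median, highest) on Mock arrays. The dKDM2 values lay inside the Mock range and the PH values below it, and the gene fell after PH depletion (-0.92, SE 0.17, limma adjusted p = 0.000118). mRpL38 had 5.10, 6.65 and 7.21 on PH arrays, against 6.89, 8.06 and 8.61 on Mock arrays, and fell by 1.55 there (SE 0.37, limma adjusted p = 0.00187), with PH array 3 inside the Mock range. mRpL28 had 10.57, 10.65 and 9.18 on dRING arrays, 10.98, 10.90 and 9.48 on PC arrays and 7.84, 9.89 and 10.66 (lowest, median, highest) on Mock arrays. Its log2 fold changes against all Mock arrays were 0.52 and 0.84 for dRING and PC, without a call (limma adjusted p = 0.815 and 0.444). Mock arrays 1 to 3, which pair with these samples, had 10.66, 10.48 and 9.84, in the upper part of the Mock range, and with the replicate block the PSC value was -0.57 in place of 0.15.

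Both subunits, as given by the gene symbols, held many falls. mRpS18A and mRpS30, whose human relatives sit in the large subunit, were counted with the small one. Of the 44 large subunit genes, 32 fell after dKDM2 depletion, 1 after dRING, 1 after PC, 32 after PH and 30 on PSC arrays, with medians of -1.53, -0.64, -0.64, -1.65 and -1.37. Of the 25 small subunit genes, 18, 1, 1, 17 and 16 fell in the same order, with medians of -1.45, -0.61, -0.65, -1.21 and -1.14. The 3 rises, of mRpL45 and mRpL44, were in the large subunit. The difference of the medians, large minus small, was -0.08, -0.03, 0.01, -0.44 and -0.24. On single arrays the large minus small median averaged -0.36 ± 0.14 for PH, against -0.16 ± 0.26 for Mock (SD, n = 3 and 14, Mock range -0.82 to 0.11), which is within the spread of the Mock arrays. On PSC arrays it was 0.24, 0.38 and -0.63, with array 3 apart from the others. The difference between subunits was not tested.

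A split by origin was made after the values were seen. The 43 members of bacterial protein families had 35 falls after dKDM2 depletion, 32 after PH and 31 on PSC arrays, with medians of -1.74, -1.89 and -1.29. The 26 members without a bacterial counterpart had 15, 17 and 15 falls, with medians of -1.15, -1.24 and -1.22, and held all 3 rises. With median centring the medians for dKDM2 and PH were -2.66 and -2.97 for bacterial families, against -2.04 and -2.35 for the others. After correction for gene length they were -1.37 and -1.45, against -0.73 and -0.85. For dRING the medians were -0.68 and -0.58, and for PC -0.71 and -0.57.

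In the small subunit a few sites can be told apart by name. Of 6 members of bacterial platform families (mRpS6, mRpS11, mRpS18A, mRpS18B, mRpS18C and mRpS21), 5 fell after dKDM2 depletion, 5 after PH depletion and 5 on PSC arrays. With deposited values these counts were 6, 6 and 5. The place is that of the bacterial family, and the human relative of mRpS18A sits in the large subunit. mRpS6 fell after PH depletion (-0.95) and had -0.75 after dKDM2 depletion without a call. Of the head proteins mRpS7, mRpS9 and mRpS14, 2 fell after each of these 3 depletions, and mRpS9 had -0.37, -0.93 and -0.34 without a call. With deposited values the head counts were 2, 3 and 2. Both lower body proteins, mRpS16 and mRpS17, fell after dKDM2 depletion (4.01-fold and 2.74-fold) and on PSC arrays (log2 fold changes -1.05 and -1.35). After PH depletion mRpS16 fell (-1.94) and mRpS17 had -0.74 without a call. With deposited values both fell after PH depletion. At the entry of the messenger RNA, mRpS5 fell after dKDM2 depletion (-1.45) and had -0.94 and -1.07 for PH and PSC without a call. mRpS24 fell after dKDM2 (-1.75) and PH depletion (-1.47) as well as on PSC arrays. With deposited values both of these genes fell after PH depletion.

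The fly genome keeps 3 genes related to bacterial S18, mRpS18A, mRpS18B and mRpS18C, of which the human relative of mRpS18A sits in the large subunit. mRpS18C had 4.60, 5.02 and 6.74 on dKDM2 arrays, 7.36, 7.30 and 8.24 on dRING arrays, 7.74, 7.52 and 8.28 on PC arrays, 6.16, 5.60 and 7.28 on PH arrays and 6.35, 5.82 and 7.13 on PSC arrays. Its Mock values had a lowest value of 7.87, a median of 8.73 and a highest value of 9.77. All dKDM2, PH and PSC arrays lay below the Mock range. Arrays 1 and 2 of dRING and of PC lay below it too, and array 3 of each lay inside it. It fell 9.65-fold, 5.19-fold and 4.89-fold for dKDM2, PH and PSC (-3.27, -2.38 and -2.29, SE 0.44 each, limma adjusted p = 2.79e-06, 0.00015 and 0.000563), and the PSC call was lost against Mock 1 to 3 alone (-1.62, limma adjusted p = 0.0991). mRpS18B fell by 1.66, 2.02 and 1.13 in these depletions (SE 0.23 each, limma adjusted p = 4.66e-06, 3.1e-07 and 0.00114), and the PSC value was -0.81 with the block (limma adjusted p = 0.126). mRpS18A had 7.47, 7.94 and 8.94 on dKDM2 arrays, against 9.26, 9.91 and 11.06 on Mock arrays, and fell by 1.86, 1.45 and 1.18 (SE 0.34 each, limma adjusted p = 0.000124, 0.00148 and 0.0168). Its PSC call was lost without PSC replicate 1 (0.129) or 2 (0.146), and its PH and PSC calls against Mock 1 to 3 alone (-0.94 and -0.67, limma adjusted p = 0.108 and 0.436). All 3 genes fell after dKDM2, PH and PSC depletion, and differences between the 3 were not tested.

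For 2 members a second probe set named the same gene. The brighter probe set of mRpL47, the mitochondrial relative of bacterial L29, had log2 fold changes of -1.01, -0.71 and -1.20 for dKDM2, PH and PSC without a call. Its dimmer probe set averaged 7.21, 7.15 and 8.08 there, against 10.14 on Mock arrays, and had -2.93, -2.98 and -2.05 (limma adjusted p over all probe sets 8.69e-05, 6.68e-05 and 0.00733). The probe sets of this gene disagreed in call with quantile normalization. With deposited values the brighter one was called too (-1.53, -1.28 and -1.39, limma adjusted p = 0.00426, 0.0145 and 0.0204), as it was with median centring. The mRpS11 probe sets had the same direction, with -1.95 and -2.63 for dKDM2 and -2.05 and -2.04 for PH. For PSC they had -0.85 (limma adjusted p over all probe sets 0.0082) and -0.84 (0.0593), and the call of the brighter one was lost with the block (-0.46, limma adjusted p = 0.341) and without PSC replicate 1 (0.0533) or 2 (0.0859).

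The depletions were also set against each other, which uses no Mock array in the difference. Between dKDM2 and dRING 20 of 69 genes differed, all lower after dKDM2 depletion (13.7% of all genes differed either way), with a median difference of -0.90. Of the 5550 genes with a mean above 4, 715 (12.9%) were called lower and 641 higher, against 29% of the members lower. The largest difference was that of mRpL36 (-2.88, SE 0.45, limma adjusted p = 0.000124), whose dKDM2 values of 6.83, 6.50 and 8.10 all lay below its dRING values of 9.85, 9.98 and 10.24. mRpL18 (-2.36, limma adjusted p = 0.0386) and mRpL51 (-2.24, limma adjusted p = 0.00437) followed. The mRpL51 groups did not overlap. The mRpL18 groups did, and its call was lost without dKDM2 replicate 1 (0.0952) or 2 (0.207) and without dRING replicate 1 (0.14) or 2 (0.152). Without dKDM2 replicate 1, dKDM2 replicate 2 or dRING replicate 2 the count of genes was 12, 13 and 13.

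Between dKDM2 and PH, the depletions whose arrays shared high control signals, 0 of 69 genes differed by limma (2.47% of all genes differed). Of the 5550 genes with a mean above 4, 50 were called lower and 79 higher. At an unadjusted p under 0.05 in limma 5 members, 755 of these 5550 genes and 1866 of all 11677 genes differed. The median difference was -0.14. With the replicate block, whose numbers paired these samples, 1 differed. The genes with the smallest p were mRpL3 (1.22, SE 0.34, limma adjusted p = 0.0558) and mRpS30 (0.76, SE 0.21, limma adjusted p = 0.0608), both higher on dKDM2 than on PH arrays. For mRpS30 the dKDM2 arrays (9.34, 9.03 and 8.86) lay above all PH arrays (8.18, 8.24 and 8.54).

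Between PSC and the other depletions with low control signals, nearly all members were lower on PSC arrays. PSC minus PC had a median of -0.73, with 66 of 69 genes below 0, and 4 genes were called, all lower (3.93% of all genes differed). Of the 5550 genes with a mean above 4, 141 (2.54%) were called lower and 140 higher, against 5.8% of the members lower. PSC minus dRING had a median of -0.70, with 67 genes below 0, and 1 gene was called (3.37% of all genes differed). Among the 5550 genes with a mean above 4, 121 (2.18%) were called lower and 113 higher, against 1.45% of the members lower. With the replicate block, which pairs these samples by number, 18 and 13 genes were called. mRpL43, without a bacterial counterpart, had 6.30, 6.01 and 5.47 on PSC arrays, against 7.67, 7.86 and 7.51 on dRING arrays and 7.84, 7.80 and 7.72 on PC arrays. No PSC array reached the others. It was lower by 1.75 against dRING (SE 0.36, limma adjusted p = 0.00372) and by 1.86 against PC (limma adjusted p = 0.00178). mRpS33 had 7.98, 7.60 and 8.13 on PSC arrays, against 9.18, 9.06 and 9.03 on PC arrays (-1.19, SE 0.32, limma adjusted p = 0.0339), and mRpL44 differed by -1.01 (SE 0.25, limma adjusted p = 0.0194). The mRpS33 call was lost without any 1 of the 3 PC arrays and without PSC replicate 1 or 2 (limma adjusted p of 0.0705 to 0.153). The mRpL44 call was lost without PC replicate 1 or 2 and without PSC replicate 2 or 3 (0.0544 to 0.105). The fourth gene was mRpS30 (-0.77, limma adjusted p = 0.0395). Leaving out 1 PC array, or PSC replicate 1 or 2, gave 1 or 2 genes in place of 4.

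Between PC and dRING 0 of 69 genes differed (0.223% of all genes did). Of the 5550 genes with a mean above 4, 5 were called lower and 6 higher. At an unadjusted p under 0.05 in limma 0 members, 79 of these 5550 genes and 449 of all 11677 genes differed. The log2 differences of the members ran from -0.33 to 0.32, with a median of 0.04.

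**Figure D4:**
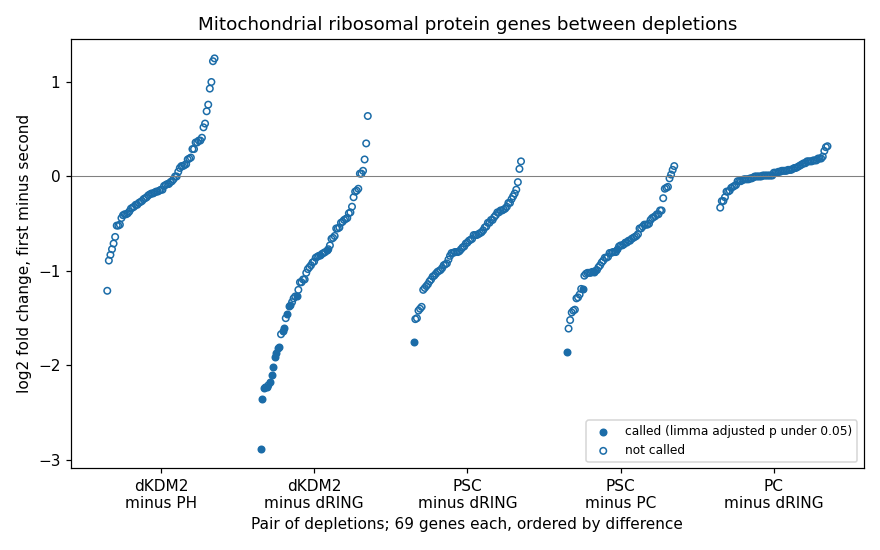
Log2 difference of each of the 69 genes between pairs of depletions (the first named minus the second), ordered within each pair, with filled points at a limma adjusted p under 0.05. The dKDM2 minus dRING values reach -2.88 and hold 20 filled points, PSC minus dRING and PSC minus PC lie mostly below 0 with 1 and 4, and PC minus dRING and dKDM2 minus PH hold 0.

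The members share a feature that the choice by name did not use, short genes. Their genomic span, introns included, had a median of 909 bp (468 to 13391), and 66 of 69 were under 2000 bp, against a median of 2696 bp over genes with a mean above 4. The log2 fold change increased with gene span across all such genes in each depletion (Spearman 0.56, 0.53, 0.51, 0.48 and 0.55 for dKDM2, dRING, PC, PH and PSC, over 5537 genes). Genes are not independent replicates, and no p is given. The 547 shortest of the other genes, with a median span of 831 bp, had median log2 fold changes of -1.35, -0.70, -0.66, -1.08 and -0.86 in that order. The members had -1.45, -0.61, -0.65, -1.47 and -1.29.

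The members therefore lay close to other short genes for dKDM2, dRING and PC, and lower than them for PH and PSC, a difference for which no test was made. After correction of the log2 values for gene length, their medians were -1.05, -0.42, -0.44, -1.26 and -1.06, and 44, 5, 7, 44 and 45 genes fell. In the same order 2, 0, 0, 2 and 0 genes rose. Within the members the relation to span was weaker, with a Spearman coefficient of 0.24, 0.31, 0.25, 0.07 and 0.45 over 69 genes. Whether span, or a step of the RNA or array handling that acts on short transcripts, plays a part in the shift was not tested.

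**Figure D5:**
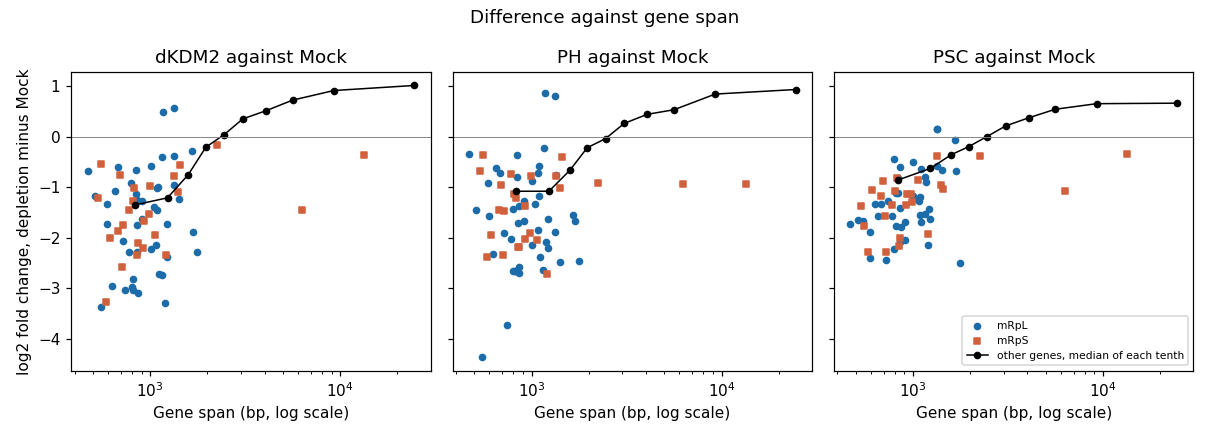
Log2 fold change (depletion minus Mock) against genomic span (log axis) for the large (circles) and small (squares) subunit genes after dKDM2, PH and PSC depletion, with a black line through the medians of 10 equal bins of the other genes with a mean above 4. The line runs upward in each panel, from -1.35 to 1.01 for dKDM2, and the members cluster at its short end with medians of -1.45, -1.47 and -1.29.

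Counts for genes that work with the mitochondrial ribosome are to be read against the shares of other genes called. Of all genes, 14.7% were called lower and 18.4% higher for dKDM2, 15.4% and 19.7% for PH and 6.51% and 10.0% for PSC. Of genes with a mean above 4, 27.7%, 27.6% and 13.4% were called lower for dKDM2, PH and PSC. tko, which encodes the mitochondrial relative of bacterial S12 in the decoding centre and is not named by the mRp rule, had 10.15 ± 0.67 on dKDM2 and 10.16 ± 1.30 on PH arrays, against 12.20 ± 0.72 on Mock arrays (SD, n = 3, 3 and 14), and fell by 2.05 after each (limma adjusted p = 0.00238 and 0.00241). Of the 3 measured ribosomal proteins under other symbols (tko, bonsai and CRIF), tko alone fell. Of 9 translation factors 4 fell and 1 rose after dKDM2 depletion, 1 fell and 1 rose after PH depletion and 3 fell on PSC arrays. The initiation factor mIF3 averaged 3.13 ± 0.50, 2.54 ± 0.34 and 3.94 ± 1.11 on dKDM2, PH and PSC arrays, against 6.07 ± 0.93 on Mock arrays, and fell by 2.94, 3.53 and 2.13 (limma adjusted p = 0.000569, 7.63e-05 and 0.0178), with values near the array minimum that understate the fall. mIF2, which brings the initiator tRNA, averaged 5.38 ± 0.52 on dKDM2 arrays, against 4.40 ± 0.38 on Mock arrays, and rose by 0.98 (limma adjusted p = 0.00364).

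Of 14 mitochondrial aminoacyl-tRNA synthetases, which charge the tRNAs, 2 fell and 3 rose after dKDM2 depletion, 3 fell and 5 rose after PH depletion and 2 fell on PSC arrays. The share that fell after dKDM2 depletion, 14.3%, was near that of all genes and below the 27.7% of genes with a mean above 4. TyrRS-m had the largest fall, with 3.43 ± 0.51 on PH arrays, against 6.38 ± 0.27 on Mock arrays (-2.95, limma adjusted p = 6.63e-08). Of 10 genes for copying and transcribing the mitochondrial genome, 4 fell and 4 rose after dKDM2 depletion. The single-stranded DNA binding protein gene mtSSB averaged 8.33 ± 0.97 on dKDM2 arrays, against 11.42 ± 0.35 on Mock arrays, and fell 8.51-fold (-3.09, limma adjusted p = 1.77e-08). PolrMT, the mitochondrial RNA polymerase, averaged 7.41 ± 0.31 on dKDM2 arrays, against 5.84 ± 0.33 on Mock arrays, and rose 2.99-fold (1.58, limma adjusted p = 1.11e-06). Of 16 import and folding genes, 4 fell and 3 rose after dKDM2 depletion.

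Nuclear-encoded subunits of oxidative phosphorylation assemble with those made on the mitochondrial ribosome. Of 73 measured, 37 fell and 3 rose after dKDM2 depletion, 0 and 0 after dRING, 0 and 1 after PC, 31 and 7 after PH and 20 and 1 on PSC arrays, with medians of -0.93, -0.20, -0.05, -0.72 and -0.53. Of 41 cytosolic ribosomal protein genes, 9 fell and 3 rose after dKDM2 depletion, 12 and 5 after PH and 2 and 2 on PSC arrays, with medians of -0.08, -0.03 and 0.04. The mitochondrial ribosomal genes had medians of -1.45, -1.47 and -1.29 in these 3 depletions. In the same order 27.7%, 27.6% and 13.4% of genes with a mean above 4 were called lower. These lists were not tested against each other.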

How the data were processed

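The deposited values are log2 signals per probe set from Affymetrix arrays, with RMA and GCRMA named in the submitters' processing notes without version or role. Of 18952 probe sets, 183 controls were left out. Quantile normalization was applied to the rest, because array medians differed by more than 0.1. Genes were named through the platform annotation and current RefSeq symbols. Each gene was represented by its brightest probe set naming it alone, and 305 genes at the array minimum everywhere were left out. The 6 group means were fitted with limma 3.58.1 in R 4.3.3 (trended eBayes, two-sided, Benjamini-Hochberg adjustment over 11677 genes). The code was tested on simulated data. Per depletion the 6 largest called falls, the called rises, the 3 members nearest to 0 and the largest fall of each subunit were named, with members called in all 5 depletions, the 3 largest called differences per pair of depletions, paralogues, and genes whose probe sets disagreed. Other members were named as examples of a role. Members and lists were chosen with earlier results of these data known, and the role and origin groups after the values were seen. Same-numbered samples correlated above 0.1 for every pair of dRING, PC and PSC with Mock, so blocked values are given where they change a call. No scan date was used. The number of arrays limits precision.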

Additional observations from a re-analysis of the deposited data

How the results depend on the processing

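The falls after dKDM2, PH and PSC depletion kept counts within 1.5 times those reported under most alternatives. The dRING and PC counts and those between depletions moved further under several of the alternatives below, except PC against dRING (0 throughout). With Mock 1 to 3 alone the counts were 33 for dKDM2, 32 for PH, 14 for PSC and 0 each for dRING and PC, with 1 for dKDM2 against PH and 3 for PSC against dRING. With Mock 1 to 7 they were 0 for dRING and PC and 2 for PSC against PC. With Mock 8 to 14 they were 9 for dRING, 10 for PC, 1 for dKDM2 against PH and 2 for PSC against dRING. With the replicate block and Mock 1 to 3 they were 0 for dRING and PC, 25 for PSC, 1 for dKDM2 against PH, 33 for dKDM2 against dRING, 13 for PSC against dRING and 18 for PSC against PC, and the dKDM2 call of mRpL18 was lost (-2.87, limma adjusted p = 0.0633). With the block and gene length correction together, chosen after seeing the data, they were 0 for dRING and PC, 2 for dKDM2 against PH, 32 for dKDM2 against dRING, 12 for PSC against dRING and 19 for PSC against PC. Gene length correction alone gave 5 for dRING and 7 for PC, and a filter on dim genes gave 4 for dRING. Array weights (0.17 to 10.41) gave 44 for dRING, 41 for PC, 28 for PH, 31 for dKDM2 against dRING, 56 for PSC against dRING and 60 for PSC against PC. Leaving out the arrays numbered 3 in all groups, chosen after seeing the data, gave 1 for dRING and PC, 3 for dKDM2 against PH, 31 for dKDM2 against dRING and 2 each for PSC against dRING and PC. Deposited values gave 0 for dRING, 1 for PC, 1 for dKDM2 against PH, 38 for dKDM2 against dRING, 0 for PSC against dRING and 1 for PSC against PC. Median centring gave 0 for dRING and PC, 47 for dKDM2 against dRING, 15 for PSC against dRING and 18 for PSC against PC. It moved the median of all genes by -0.17, -0.22 and -0.27 for dKDM2, PH and PSC. mRpL45 turned to -0.01 for dKDM2 with deposited values, and to -0.18 for dKDM2 and -0.11 for PH with median centring. Leaving out 1 array at a time gave 38 to 52 falls for dKDM2, 37 to 50 for PH, 26 to 48 for PSC, 0 to 2 for dRING and 0 to 3 for PC. Between depletions it gave 0 to 4 genes for dKDM2 against PH, 12 to 29 for dKDM2 against dRING, 1 to 2 for PSC against dRING, 1 to 6 for PSC against PC and 0 for PC against dRING. The cause of these changes was not tested. Of 3053 values of named members under the alternatives, 2823 kept their call or, where not called, moved by less than 1 SD of the replicates, 121 lost the call, 47 gained one, 59 without a call moved further and 3 called ones, all of mRpL45, turned sign. Of the values without a call, 49 turned sign. Signals near the array minimum understate falls.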
